A study of Mus musculus with 8 samples.

Results

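The Toll-like receptor genes and their adaptors examined here were Tlr1, Tlr2, Tlr4, Tlr7, Tlr8, Tlr9, Tlr13, Cd14, Ly86 and Myd88. They were chosen by name, and all 10 had a row in the matrices of all 4 libraries, among 30406 genes that the libraries share. RNA was read in single CD45+/CD11b+ myeloid cells, sorted from the sciatic nerve of male and female C57BL/6JolaHsd mice after perfusion. In partial sciatic nerve ligation (PSNL) part of the nerve was tied off, in crush it was pressed with forceps, and in sham it was exposed only. Cells came from sham, PSNL and crush nerves at 1 week and from PSNL and crush nerves at 15 weeks (n = 2, 2, 2, 4 and 3 samples), each sample marked by a hashtag antibody. The later time has no sham group here, and late sham nerves were not analysed here. The sources used here do not say whether a hashtag stood for 1 mouse or for pooled mice, so p-values measure only the spread between these samples. At 1 week, 1 library held both PSNL samples and the sham female, and another held both crush samples and the sham male. At 15 weeks each injury had its own library. Injury therefore coincides with library apart from sham, and time coincides with batch, so time and batch cannot be told apart.

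Toll-like receptors recognise microbial products and molecules released by damaged tissue. Tlr1, Tlr2 and Tlr4 act at the cell surface, where CD14 hands lipopolysaccharide to TLR4 and its partner MD-2. LY86 (MD-1) pairs with RP105, a relative of TLR4 encoded by Cd180. Tlr7, Tlr8, Tlr9 and Tlr13 sense nucleic acids inside endosomes. MYD88 carries the signal of all these receptors to IRAK kinases and to NF-kappaB. In injured nerve such signalling is known from Schwann cells and macrophages, which clear myelin and release cytokines.

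After filtering, 6553 cells were kept, between 64 (sham female) and 1556 per sample (crush at 15 weeks, M1), with 247765 to 15294306 UMIs in all. A UMI is a molecule counted once. Xist and Ddx3y fitted the labelled sex in all 13 samples. The rule that assigned cells to hashtags was chosen partly because another rule, HTODemux, put male RNA in the sham female. The fit to sex is therefore no independent check of it. Ptprc, the gene of CD45, was found in 68.8 to 95.2% of the cells of each sample. Libraries shared 1 to 3 cell barcodes with one another. Counts of replicates disagreed beyond counting error, with chi-squared values of 4.14 to 41.8 for each degree of freedom. Cells of the neutrophil gate, defined below, made up 1.56 and 13.2% of sham, 28.6 and 12.2% of PSNL and 2.11 and 4.12% of crush samples at 1 week, and at most 0.411% at 15 weeks, although Ly6G+ cells were left out of the sort at 1 week. The summed level of 7 neutrophil markers was 505 and 3594 CPM in sham, 14129 and 4836 CPM in PSNL, 1016 and 1998 CPM in crush at 1 week, and 123 to 413 CPM at 15 weeks, where Retnlg was at 0 in 2 samples and Hdc in 1. Gm42418, which overlaps ribosomal RNA repeats, took 7.23 to 18.4% of the UMIs at 1 week and 1.33 to 2.36% at 15 weeks. In sums over cells, fewer cells of a type and less RNA per cell cannot be told apart.

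Sequences upstream of the start are shown for Tlr2, Tlr13 and Myd88, since these moved with injury or time, and around the start of Ly86, which moved the other way. They are RefSeq promoters of build GRCm38.p6, written 5′ to 3′, and each long stretch ends before the first exon base of its window in GENCODE M21. Capitals mark matches, on either strand, to the kappaB site (Tlr2), to GAGGAA, the core bound by PU.1 (Tlr13), and to GAAANNGAA, found in interferon response elements (Myd88 and Ly86). Position 0 is the RefSeq start.
Tlr2, 250 to 160 bases upstream: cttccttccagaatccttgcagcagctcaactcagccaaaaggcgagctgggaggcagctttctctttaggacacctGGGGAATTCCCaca
Tlr2, around the start: ccctgacctgGGGACATCCCcttccctcac
Tlr13, 250 to 72 bases upstream: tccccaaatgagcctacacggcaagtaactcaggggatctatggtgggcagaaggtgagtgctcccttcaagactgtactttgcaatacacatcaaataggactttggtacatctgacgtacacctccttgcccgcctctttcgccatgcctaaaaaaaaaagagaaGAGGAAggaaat
Myd88, 250 to 24 bases upstream: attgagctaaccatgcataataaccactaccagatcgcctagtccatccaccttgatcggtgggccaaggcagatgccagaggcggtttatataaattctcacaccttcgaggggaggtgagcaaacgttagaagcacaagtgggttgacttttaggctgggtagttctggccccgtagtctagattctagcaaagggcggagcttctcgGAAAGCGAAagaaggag
Ly86, around the start: ttcgagaagtGAAACTGAAcatactactcc
In Tlr2 (chr3:83841768-83841858 and chr3:83841597-83841626, minus strand) the upstream capitals hold a pair of overlapping kappaB matches. The Tlr13 stretch lies at chrX:106143025-106143203 on the plus strand, and its match spans positions -83 to -78. For Myd88 (chr9:119340042-119340268, minus strand) the match spans -40 to -32, and the window lies in an intron of the longest gene model. The Ly86 window (chr13:37345335-37345364, plus strand) has its match at 0 to 8, just past the start. Of the 32851 promoters of the same length, 8.46% held a kappaB match, 28.3% GAGGAA and 8.56% GAAANNGAA. TGANTCA, the AP-1 site, was in 7.81% of promoters and, among members, in Tlr9. GAGGAA was also in Tlr1, Tlr8 and Tlr9, and GAAANNGAA also in Tlr8, so neither is limited to the genes shown. Promoters of 7 of the 10 members were used, and those of Tlr4, Tlr7 and Cd14 were not used here. These matches are letters in a window, and no binding was measured.

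In PSNL nerves at 1 week, Cd14, Tlr2, Tlr4 and Tlr13 were higher than in sham, and the TLR4 co-receptor gene Cd14 had the highest fold of the 10 members. Levels are given in CPM, UMI counts scaled to a common library size after TMM normalisation, and a difference was called at an adjusted p under 0.05. Cd14 was at 1097 CPM in the PSNL female and 1103 in the male, against 131 and 140 CPM in sham. The difference of 8.07-fold (log2 3.01 ± 0.24 SE, adjusted p = 0.000189) far exceeded the gap between the samples of either group. Tlr2, which pairs with TLR1 or TLR6 to sense lipoproteins, was at 205 and 186 CPM in PSNL and at 39.4 and 78.8 CPM in sham, 3.05-fold higher (log2 1.61 ± 0.26, adjusted p = 0.00517). Its 2 PSNL samples lay close together, and its 2 sham samples did not.

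**Figure D1:**
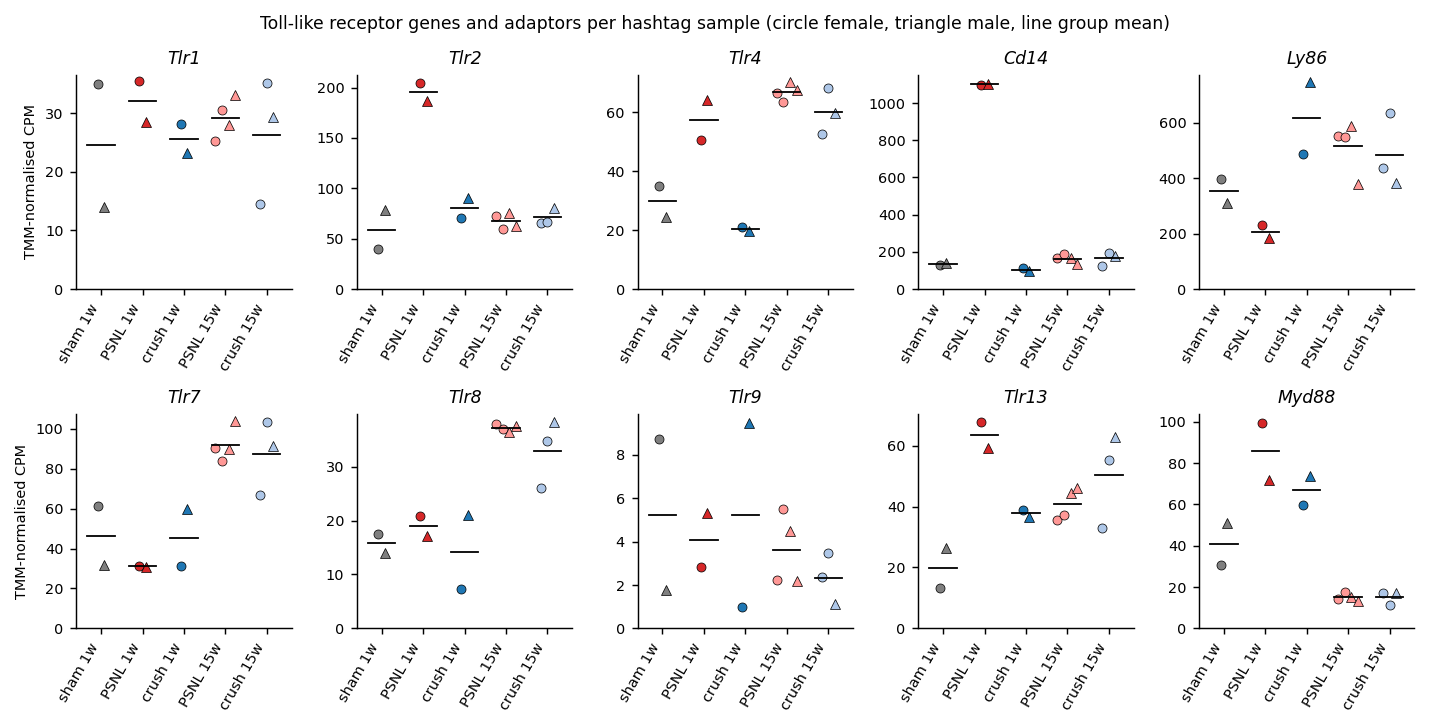
TMM-normalised CPM (y axis, from 0, own scale per gene) of the 10 members in the 13 hashtag samples, by group; circles are female, triangles male, and lines group means. Cd14 stood at 1097 and 1103 CPM in PSNL at 1 week and at 98.4 to 194 CPM in every other sample.

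Tlr13, a sensor of bacterial ribosomal RNA in endosomes, was at 67.7 and 59.2 CPM in PSNL and 13.1 and 26.3 CPM in sham (log2 1.53 ± 0.39, adjusted p = 0.0409). Tlr4, the lipopolysaccharide receptor, was at 50.7 and 64.3 CPM against 35.0 and 24.5 CPM (log2 1.04 ± 0.25, adjusted p = 0.0315). The groups did not overlap for either gene, yet both calls were lost in 9 of 12 alternatives each, among them library as a term and the fits without the sham female, the sham male or the PSNL male. Assigning cells by HTODemux in place of the valley thresholds, which gave the sham female 132 cells in place of 64 and the PSNL male 86 in place of 874, ended all 4 calls, with a log2 value of 1.51 for Cd14 and 1.02 for Tlr2. Called members made up 4 of 10, against 5.22% of the 11484 genes tested, and the median log2 difference was 0.79 over members and 0.10 over all genes tested. The other 6 members were not called, though Tlr7, Myd88 and Ly86 did not overlap between the groups either. The share of all genes without overlap is not given, here or below. Lack of overlap therefore does not set members apart from other genes. Myd88 was at 99.5 and 72.1 CPM in PSNL and 30.6 and 50.8 CPM in sham (log2 0.97 ± 0.30, adjusted p = 0.0792), and Ly86 at 231 and 183 CPM against 398 and 310 CPM (log2 -0.76 ± 0.30, adjusted p = 0.164).

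The PSNL samples held more neutrophil-gated cells than crush samples, and more than the sham female. Without these cells Cd14 still differed from sham (log2 2.75, adjusted p = 0.000237) and so did Tlr2 (log2 1.70, adjusted p = 0.00253), whereas Tlr13 (adjusted p = 0.0528) and Tlr4 (adjusted p = 0.126) were no longer called. The sham male and the PSNL male had like shares of neutrophil-gated cells (13.2 and 12.2%), with Cd14 at 140 and 1103 CPM. These are 1 sample each, in different libraries, with 14 such cells in the sham male, and this pairing was not tested. Within the library that held the PSNL samples and the sham female, PSNL exceeded sham by a log2 of 3.07 for Cd14, 2.31 for Tlr2, 2.27 for Tlr13 and 0.72 for Tlr4. This rests on 1 sham sample and has no test of its own.

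Crush nerves at 1 week showed no called member against sham. Cd14 was at 111 and 98.4 CPM, Tlr4 at 21.2 and 19.9 CPM and Tlr2 at 71.0 and 90.4 CPM. Ly86 was at 487 and 745 CPM, above both sham samples (log2 0.81 ± 0.30, adjusted p = 0.319). With edgeR 1 member passed an unadjusted p under 0.05, and DESeq2 called 0 members. Of all genes 0.061% were called, 7 in number (DESeq2 144), so the 95% intervals say more than the calls. For Cd14 that interval ran from -0.89 to 0.12 on the log2 scale and for Tlr2 from -0.23 to 0.91.

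PSNL and crush nerves were set against each other at 1 week. Cd14 was 10.5-fold higher in PSNL (log2 3.40 ± 0.23, adjusted p = 2.7e-05), Tlr4 2.82-fold (log2 1.497 ± 0.19, adjusted p = 0.000792) and Tlr2 2.41-fold (log2 1.27 ± 0.22, adjusted p = 0.00356). Ly86 went the other way and was 2.98-fold lower in PSNL (log2 -1.58 ± 0.29, adjusted p = 0.0056). PSNL and crush samples did not overlap for any of these 4 genes. Nor did they for Tlr13 and Tlr1, which were not called (adjusted p = 0.101 and 0.612), so lack of overlap does not set the called genes apart. Of all genes 12.4% were called in this comparison, and the members' median was 0.34 against -0.02 over all genes. Both injuries sat in different libraries. With library as a term, estimated from the 1 sham sample in each, Cd14 (log2 3.49, adjusted p = 0.0161) and Tlr2 (log2 2.27, adjusted p = 0.0437) were called, and Tlr4 (adjusted p = 0.469) and Ly86 (adjusted p = 0.13) were not. The Ly86 call was also lost without the PSNL male or without the crush male, with log2 values of -1.42 and -1.24.

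**Figure D2:**
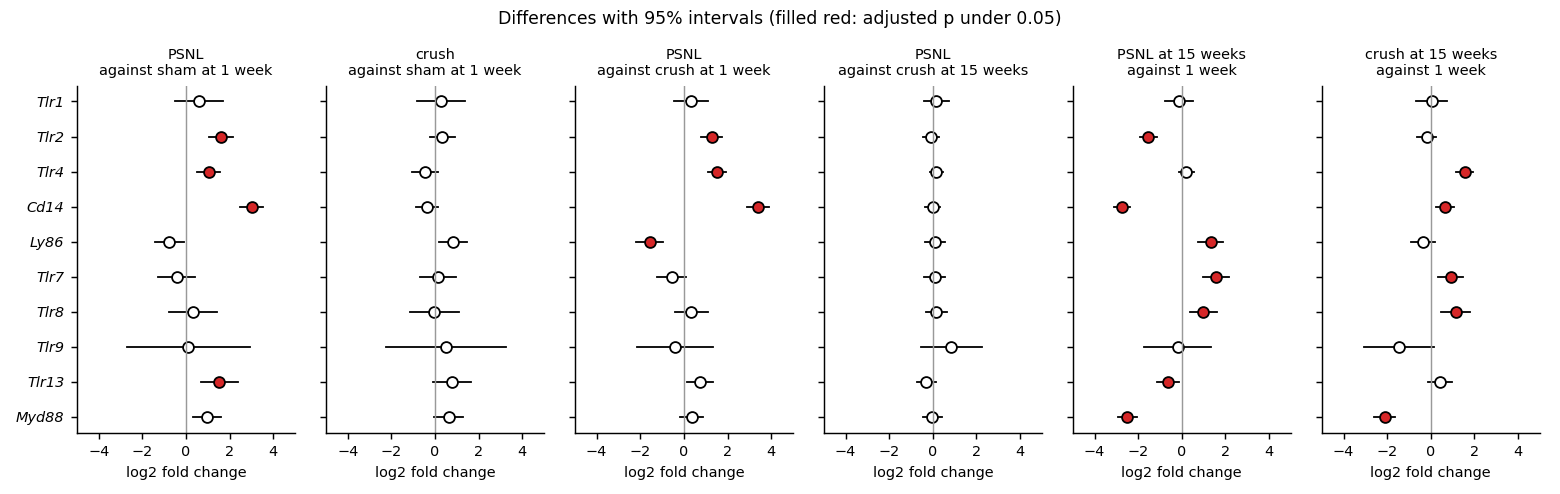
Log2 fold changes (x axis) of the 10 members (y axis) in 6 comparisons, with 95% intervals from the quasi-likelihood fit; red points had an adjusted p under 0.05. The intervals of Tlr9, at 1 to 9 CPM, were the widest, and at 15 weeks no PSNL against crush point was red.

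At 15 weeks no member differed between PSNL and crush. Cd14 was at 169, 186, 165 and 136 CPM in PSNL and 123, 194 and 178 CPM in crush. All 10 members overlapped between the groups. The members' median log2 value was 0.09. With edgeR 0 members passed even an unadjusted p under 0.05, and 0% of the 11484 genes were called (550 at an unadjusted p under 0.05), and DESeq2 called 8 genes and 0 members. The log2 interval was -0.35 to 0.34 for Cd14, -0.43 to 0.28 for Tlr2, -0.13 to 0.45 for Tlr4 and -0.38 to 0.56 for Ly86, and it was widest for Tlr9 (-0.55 to 2.26).

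Within PSNL, 7 of 10 members differed between 15 weeks and 1 week, against 56.3% of all genes, so the count by itself is near the background. The fall of Cd14 was 6.71-fold (log2 -2.75 ± 0.17, adjusted p = 1.57e-07) and that of Myd88, the shared adaptor, 5.63-fold (log2 -2.49 ± 0.21, adjusted p = 1.27e-06). Myd88 was at 13.3 to 17.8 CPM in the 4 PSNL samples at 15 weeks. Tlr2 fell 2.88-fold (log2 -1.53 ± 0.18, adjusted p = 1.7e-05), to 59.7 to 75.9 CPM. Tlr13 was lower by a log2 of 0.63 ± 0.23 in size (adjusted p = 0.0341), a call lost in 8 of 13 alternatives, one of them without the neutrophil-gated cells. Cd14, Myd88 and Tlr2 stayed called in all 13 alternatives, that one included. Gm42418 also fell with time, and its part in these differences was not tested.

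Tlr7, Tlr8 and Ly86 rose in the same comparison. Tlr7 was at 31.3 and 31.0 CPM in PSNL at 1 week and at 90.4, 84.0, 90.1 and 103.9 CPM at 15 weeks (log2 1.56 ± 0.27, adjusted p = 0.000371). Tlr8, its neighbour on the X chromosome, was at 20.8 and 17.2 CPM and then at 36.4 to 38.0 CPM (log2 0.98 ± 0.29, adjusted p = 0.0112), with the call lost without the PSNL male at 1 week. Ly86 rose 2.50-fold, to 552, 549, 586 and 380 CPM (log2 1.32 ± 0.26, adjusted p = 0.000986). For these 3 genes all 4 later samples lay above both earlier ones.

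In crush 5 of 10 members differed with time, against 42.5% of all genes. Myd88 fell 4.31-fold, from 59.6 and 73.9 CPM to 17.3, 11.2 and 17.0 CPM (log2 -2.11 ± 0.22, adjusted p = 1.71e-05). Tlr4 rose 2.93-fold, from 21.2 and 19.9 CPM to 52.6, 68.3 and 59.9 CPM (log2 1.55 ± 0.18, adjusted p = 3.16e-05). Tlr8 (log2 1.15 ± 0.31, adjusted p = 0.00962) and Tlr7 (log2 0.92 ± 0.27, adjusted p = 0.0162) were higher at 15 weeks, and both calls were lost without the crush female at 1 week. Cd14 rose 1.58-fold (log2 0.66 ± 0.20, adjusted p = 0.0172), a call lost with HTODemux, without the crush male at 1 week (0.58) and without crush F2 at 15 weeks (0.53). The lower Myd88 at 15 weeks was thus found after both injuries. Myd88 overlaps Slc22a14 on its strand and Acaa1a on the other in the annotation, so its counts are uncertain to that extent.

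Whether the PSNL minus crush difference itself changed between the times was tested by the contrast of differences. It was called for Cd14 (log2 -3.40 ± 0.27, adjusted p = 0.000194), Tlr4 (-1.34 ± 0.23, adjusted p = 0.00655), Tlr2 (-1.35 ± 0.27, adjusted p = 0.0127) and Ly86 (1.67 ± 0.36, adjusted p = 0.0174), 4 of 10 members against 7.81% of all genes. The call of Tlr2 was lost without the PSNL male at 1 week, and that of Ly86 without it or without the crush male at 1 week. For Myd88 (-0.39 ± 0.31, adjusted p = 0.489) and Tlr7 (0.65 ± 0.37, adjusted p = 0.309) no such change was called.

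Tlr1, which pairs with TLR2, was called in no comparison of groups and lay between 14.0 and 35.5 CPM in all 13 samples. Its last 500 transcript bases share 7.06% of their 50-base words with other genes, none of them Tlr6. Tlr9, the sensor of unmethylated DNA, had 3 to 57 UMIs per group and stood at 0.99 to 9.47 CPM, too few for its differences to be read. In crush with time its log2 value was -1.45 ± 0.75 (adjusted p = 0.136), and it turned to 1.05 without the crush male at 1 week. Ordered by group mean, Cd14 ran from crush at 1 week (105 CPM) through sham (136), PSNL at 15 weeks (164) and crush at 15 weeks (165) to PSNL at 1 week (1100.00), where only the last step exceeded the spread between samples by a wide margin. Ly86 ran from PSNL at 1 week (207 CPM) and sham (354) to crush at 15 weeks (485), PSNL at 15 weeks (517) and crush at 1 week (616), and the last 3 groups overlapped, as did sham with either group at 15 weeks. For Myd88 the lowest means were 15.1 CPM in PSNL and 15.2 CPM in crush at 15 weeks, which overlapped, below 40.7 CPM in sham, 66.8 CPM in crush and 85.8 CPM in PSNL at 1 week.

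No member differed between female and male samples when sex was added as a term, against 0.104% of all genes called (12 genes). Tlr7, Tlr8 and Tlr13 lie on the X chromosome, and their female minus male log2 values were -0.17 ± 0.17, -0.22 ± 0.18 and -0.24 ± 0.15 (adjusted p = 0.806, 0.757 and 0.649). With edgeR 0 members passed an unadjusted p under 0.05 for sex.

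The share of cells with a UMI depends on depth, so each cell was also thinned to 1500 UMIs, which left out 17 sham, 141 PSNL and 104 crush cells at 1 week and 25 and 27 cells at 15 weeks. After thinning, Cd14 was found in 46.2 and 49.4% of PSNL cells at 1 week, in 9.4 and 9.5% of crush cells and in 14.0 and 17.7% of sham cells (58.1, 64.3, 23.5, 23.2, 31.2 and 40.6% before thinning). Ly86 was found in 17.4 and 15.4% of PSNL, 45.3 and 54.9% of crush and 45.6 and 31.2% of sham cells after thinning (34.2, 32.7, 74.7, 78.4, 62.5 and 59.4% before). Between PSNL and crush both shares go the way of the CPM, whereas the Ly86 shares of the crush and the sham female were nearly equal. Myd88 was found in 12.1 and 10.3% of thinned PSNL cells at 1 week and in 1.1 to 3.4% at 15 weeks (29.5 and 26.0%, then 10.8 to 13.04%, before). In thinned PSNL cells at 1 week, 28.7% of the 610 cells with Cd14 also had Tlr2, against 14.4% of those without Cd14. For Cd14 with Tlr4 these shares were 9.67 and 7.33%.

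Cells were also gated by marker genes, none of which is a member. A cell entered the gate with the highest share of its markers detected, if that was over 50%. In this way 3955 cells (60.4%) fell into 8 gates of at least 100 cells, 2357 into none and 224 were tied. Of the gated cells 1891 were just past the cut, among them 541 of 722 microglia-like and 224 of 254 dendritic cells. In all, 861 cells passed the cut of 2 or more gates. Markers were read before thinning, and median depth ran from 1978 UMIs (neutrophil) to 12441 UMIs (Retnla Ear2). The gate set by Arg1, Spp1, Lgals3, Fabp5, Gpnmb and Hmox1 is called the Spp1 Lgals3 gate, since Arg1 was found in 72.3% of its cells at 1 week and 1.62% at 15 weeks. In the microglia-like gate Sall1 was found in 0% of the cells, at both times. Free RNA adds UMIs of abundant genes to every cell, and Cd14 was found in 1.19% of thinned dendritic-gated cells (median 8725 UMIs) against 24.2% of resident macrophage-gated cells (median 5563 UMIs). Only 22 of the 254 dendritic-gated and 8 of the 705 resident cells came from PSNL at 1 week. These pooled shares therefore cannot show how much free Cd14 RNA those PSNL samples held, which was not tested.

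**Figure D3:**
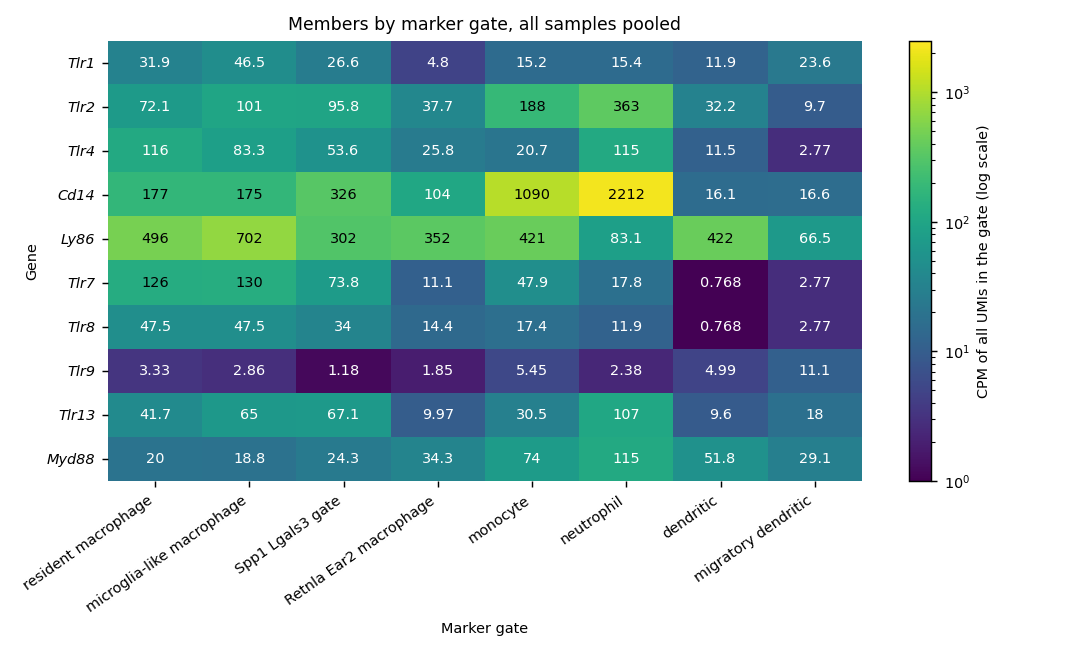
CPM, the UMIs of a gene scaled by all UMIs of the gate (colour, log scale, and printed), for the 10 members (rows) in 8 marker gates (columns), all samples pooled. Pooled Cd14 was highest in the neutrophil and monocyte gates, but by sample monocytes ranged from 114 to 1625 CPM, and Tlr7 and Tlr8 had 2 UMIs each in either dendritic gate.

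Gates drew on different samples, so levels are given for the samples with at least 20 cells of a gate. Cd14 in the neutrophil gate was at 2405 CPM in the PSNL female, 2582 CPM in the PSNL male and 798 CPM in the crush male at 1 week. In the monocyte gate the same 3 samples stood at 1323, 1625 and 114 CPM, so monocytes of the crush male were far below those of both PSNL samples. The Spp1 Lgals3 gate had a median of 142 CPM over 10 samples (111 to 880 CPM), below the median of 175 CPM over 9 samples in resident macrophages (130 to 261 CPM), although its pooled value was higher (326 against 177 CPM). With sample in the fit, Cd14 was called neither for monocytes (log2 0.65 ± 0.40, adjusted p = 0.314) nor for the Spp1 Lgals3 gate (-0.15 ± 0.24, adjusted p = 0.676) against resident macrophages. Tlr2 was at 252 to 549 CPM in neutrophils, 157 to 230 CPM in monocytes and 46.6 to 112 CPM in resident macrophages, which do not overlap. No sample behind the neutrophil and monocyte values had 20 resident cells, so gate, injury and time cannot be told apart in these ranges. With sample in the fit, Tlr2 was not called for monocytes against resident macrophages (log2 0.84 ± 0.33, adjusted p = 0.0893). Tlr4 ran from 34.9 to 158 CPM in resident macrophages and from 16.6 to 155 CPM in neutrophils, which overlap. Tlr7 had a median of 132 CPM in resident and 124 CPM in microglia-like macrophages, and dendritic cells held 2 UMIs of it in all. Ly86 was at 415 to 1255 CPM in microglia-like macrophages and 67.3 to 133 CPM in neutrophils.

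Gates were then tested against each other over 8621 genes, in a fit that gave every hashtag sample its own term. Against resident macrophages, dendritic cells had 7 of 9 members tested lower and none higher (44.9% of genes called), led by Tlr7 (log2 -7.30 ± 0.48), Tlr8 (-4.88 ± 0.70), Cd14 (-2.96 ± 0.40) and Tlr4 (-2.62 ± 0.37). The fitted values of Tlr7 and Tlr8 rest on 2 UMIs each in dendritic cells and are no bounds. Cells of the Retnla Ear2 gate had 6 members lower and none higher (40.6% of genes called). Microglia-like macrophages had Tlr13 (log2 0.68 ± 0.20, adjusted p = 0.024) and Ly86 (0.57 ± 0.16, adjusted p = 0.014) higher (10.2% called). The Spp1 Lgals3 gate had Tlr13 higher (0.84 ± 0.21) and Tlr4 lower (-0.997 ± 0.21), where 36.6% of all genes were called. These gates shared 2 to 7 samples with the resident gate.

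Neutrophil, monocyte and migratory dendritic cells shared no sample of 20 or more cells with the resident gate, so their contrasts run through the other gates. In these, Cd14 (log2 2.12 ± 0.40), Tlr2 (2.00 ± 0.33), Tlr13 (1.80 ± 0.37) and Myd88 (adjusted p = 0.00567) were higher in neutrophils and Tlr7 (-1.09 ± 0.40) and Ly86 (-1.06 ± 0.33) lower (26.9% of genes called). Both lower values were lost at 50 cells per sample and gate, where Ly86 had a log2 value of -0.014 and Tlr7 an adjusted p of 0.165, and Tlr7 was also lost with no filter (adjusted p = 0.0676). Monocytes had Tlr4 lower (-2.11 ± 0.49; 13.9% called). At 50 cells the monocyte contrast rests on the PSNL male at 1 week alone, with log2 values of 1.98 for Ly86 and 1.09 for Cd14. Migratory dendritic cells had 5 members lower (20.6% called). The Spp1 Lgals3 gate shares 3, 3 and 2 samples with the neutrophil, monocyte and migratory dendritic gates. Against it, neutrophils had Cd14 (2.27 ± 0.34), Tlr2 (1.70 ± 0.27), Myd88 (1.51 ± 0.32), Tlr4 (1.42 ± 0.35) and Tlr13 (0.97 ± 0.30) higher and Ly86 lower (-0.90 ± 0.30; 34.9% called). Monocytes had Ly86 higher (0.90 ± 0.25) and Tlr13 lower (-1.25 ± 0.38; 12.5% called), and migratory dendritic cells had 6 members lower and none higher (22.7% called). That comparison was added after the data were seen.

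**Figure D4:**
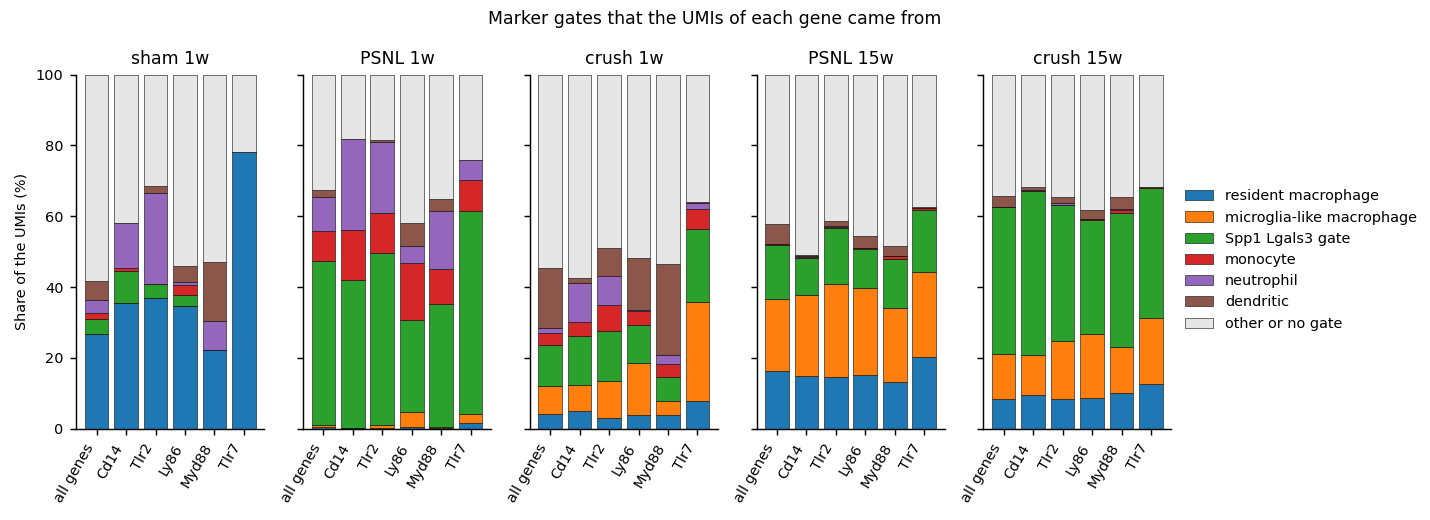
Share of the UMIs of all genes and of 5 members (y axis, %) that came from each marker gate, stacked, in the 5 groups. In PSNL at 1 week 41.6% of Cd14 UMIs came from the Spp1 Lgals3 gate and 25.6% from the neutrophil gate, which held 46.2 and 9.45% of all UMIs.

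In PSNL nerves at 1 week, 41.6% of the Cd14 UMIs came from the Spp1 Lgals3 gate, 25.6% from the neutrophil gate and 14.2% from the monocyte gate. The first share is close to that gate's 46.2% of all UMIs, and the other shares exceed the 9.45 and 8.53% of all UMIs in their gates. For Tlr2 the shares were 48.5, 20.03 and 11.5%, and for Myd88 34.7, 16.3 and 9.84%.

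The comparisons of groups were repeated within cells of 1 gate, in samples with at least 20 such cells. In the Spp1 Lgals3 gate at 1 week Cd14 was at 766 and 1021 CPM in PSNL and at 128 and 126 CPM in crush (log2 2.82 ± 0.31, adjusted p = 0.000362). Ly86 was at 163 and 82.2 CPM in PSNL against 427 and 739 CPM in crush (-2.27 ± 0.37, adjusted p = 0.00471), and Tlr7 at 35.5 and 37.1 CPM against 67.8 and 103 CPM (-1.26 ± 0.32, adjusted p = 0.0385). So 3 of 9 members tested differed, against 4.95% of genes. The Cd14 call held with each 1 week sample left out in turn, Ly86 was lost without the PSNL male or the crush male, and Tlr7 was called only without the crush female. Sham samples held 2 and 1 cells of this gate. Tlr2 (0.87 ± 0.36, adjusted p = 0.194) and Tlr4 (0.98 ± 0.51, adjusted p = 0.296) were not called within it.

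**Figure D5:**
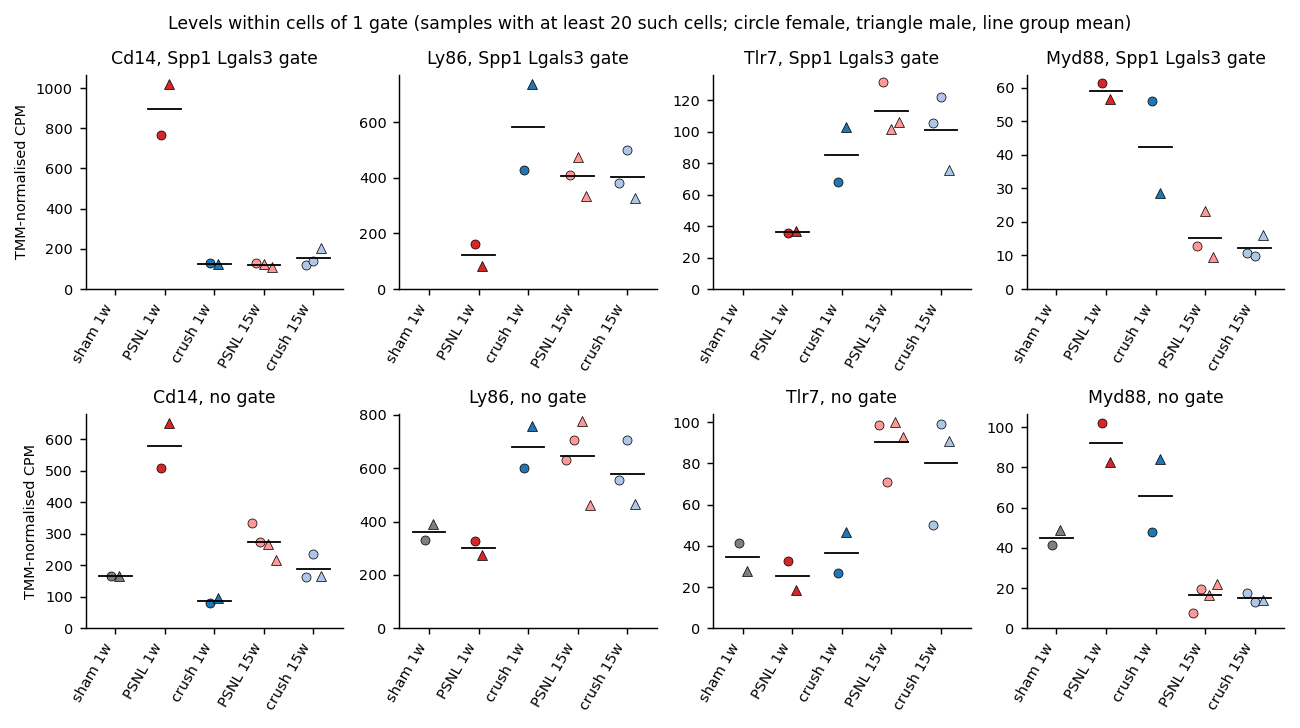
TMM-normalised CPM (y axis, from 0) of Cd14, Ly86, Tlr7 and Myd88 within the Spp1 Lgals3 gate (top) and among cells of no gate (bottom), per sample and group; circles are female, triangles male, lines group means. Sham has no point in the top row, and both PSNL samples at 1 week lie above all others for Cd14 in both rows.

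Among cells of no gate, which all 13 samples held, Cd14 was at 507 and 652 CPM in PSNL at 1 week, 79.4 and 97.3 CPM in crush and 165 and 167 CPM in sham. It was the only member called in PSNL against sham there (log2 1.80 ± 0.30, adjusted p = 0.00852; 0.71% of genes called). Against crush, Cd14 (2.70 ± 0.26, adjusted p = 3.68e-05) and Ly86 (-1.18 ± 0.26, adjusted p = 0.0194) were called (4.44% of genes called). With each 1 week sample left out in turn Cd14 stayed called, and Ly86 was called without the crush female (-1.35) and lost in the other 3 fits (adjusted p = 0.0620 to 0.219). In crush against sham edgeR called 0 members (3 at an unadjusted p under 0.05) and 0.0109% of genes. The time comparisons called 5 members in PSNL (47.9% of genes) and 4 in crush (35.2%), and Myd88 was lower at 15 weeks in both (-2.40 ± 0.29 and -2.18 ± 0.30). The contrast of differences called Ly86 (1.34 ± 0.33) and Cd14 (-2.16 ± 0.31), against 3.2% of genes.

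With time, Myd88 also fell within the Spp1 Lgals3 gate, by a log2 of -1.93 ± 0.37 in PSNL (adjusted p = 0.0011; 39.0% of genes called) and -1.55 ± 0.44 in crush (adjusted p = 0.0311; 13.6% called). In dendritic cells of crush nerves it fell from 120 and 96.0 CPM to 21.9 and 17.9 CPM (-2.40 ± 0.38, adjusted p = 0.0111; 10.8% called). In that gate 4 members were tested and Myd88 alone was called. In the Spp1 Lgals3 gate of PSNL nerves, Tlr7 (1.61 ± 0.27), Ly86 (1.74 ± 0.35) and Tlr8 (1.38 ± 0.40) rose and Cd14 (-2.88 ± 0.26) and Tlr2 (-1.23 ± 0.31) fell. Since Arg1 was nearly lost from this gate by 15 weeks, its cells at the 2 times are not one state. The PSNL minus crush difference changed with time for Cd14 (-3.19 ± 0.39, adjusted p = 0.00182) and Ly86 (2.29 ± 0.47, adjusted p = 0.0282), against 1.77% of genes. At 15 weeks PSNL and crush did not differ in any member within the resident, microglia-like or Spp1 Lgals3 gate or among cells of no gate. There edgeR called 0% of genes each, with 269, 276, 320 and 528 genes and 0, 0, 0 and 1 member (Cd14 among cells of no gate) at an unadjusted p under 0.05, and no other tool was run within gates.

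Other genes of the pathway were taken from 7 lists. Among co-receptors and partners, Itgam, the CD11b chain of complement receptor 3, was higher in PSNL than in sham (log2 1.29 ± 0.27, adjusted p = 0.0183). This was 1 of 4 genes tested, where 5.22% of all genes were called. Against crush (12.4% of all genes called), Ly96, the gene of MD-2 (1.48 ± 0.22), Itgam (0.97 ± 0.26) and Cd36, a scavenger receptor (2.21 ± 0.61), were higher. Cd180, the RP105 partner of LY86, was lower (-0.90 ± 0.26). Cd180 thus stood below crush together with Ly86. With time in PSNL (56.3% of all genes called), Itgam fell (-1.88 ± 0.21) and Cd180 rose (1.57 ± 0.23). In crush (42.5% called) Ly96 (1.48 ± 0.21), Cd36 (1.57 ± 0.57) and Cd180 (0.70 ± 0.23) rose while Itgam fell (-0.96 ± 0.23). The contrast of differences called Ly96 (-1.60 ± 0.27), against 7.81% of all genes.

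Of the 10 genes that deliver or cleave endosomal receptors, 5 were higher in PSNL than in sham, where 5.22% of all genes were called, among them the proteases Ctsl (log2 4.50 ± 0.89, adjusted p = 0.0138) and Lgmn (1.46 ± 0.32) and the endosomal transporter Slc15a3 (1.49 ± 0.35). The list's median was 0.85, against 0.10 over all genes. Against crush, Ctsl (3.18 ± 0.78) and Slc15a3 (1.42 ± 0.31) were higher and Unc93b1, the chaperone that brings these receptors to endosomes, lower (-0.93 ± 0.20). With time Ctsl fell in PSNL (-3.97 ± 0.62), Hsp90b1, an endoplasmic reticulum chaperone of the receptors, fell in PSNL (-0.77 ± 0.15) and crush (-0.92 ± 0.16), and Ap3b1, an adaptor subunit of endosomal sorting, rose in both (1.01 ± 0.16 and 0.78 ± 0.17).

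Among genes that the pathway induces, 11 cytokine and inflammatory genes were tested at 1 week. Of these, 4 were higher in PSNL than in sham, Tnf (1.93 ± 0.34, adjusted p = 0.00793), Ccl3 (2.19 ± 0.41), Nfkbiz (1.30 ± 0.26) and Ptgs2 (3.33 ± 0.70), and none below, with a median of 1.69 over the list and 5.22% of all genes called. Above crush were 6 of 11 (12.4% of all genes called), led by Tnf (2.54 ± 0.27, adjusted p = 0.000414), Nfkbiz (1.59 ± 0.24) and Ptgs2 (2.92 ± 0.60). With time in PSNL 7 of 11 fell and none rose, where 56.3% of all genes were called, 3104 lower and 3363 higher. The falls were led by Ptgs2 (-5.27 ± 0.51), Il1b (-4.41 ± 0.48) and Cxcl2 (-6.41 ± 0.82). In crush 4 fell (42.5% of all genes called in either direction), among them Ptgs2 (-2.19 ± 0.54) and Il6 (-5.02 ± 1.30), and Tnf rose (1.44 ± 0.25). The PSNL minus crush difference changed with time for 5 of 11 (7.81% of all genes called), among them Tnf (-2.57 ± 0.33), Nfkbiz (-1.31 ± 0.30) and Cxcl2 (-4.87 ± 1.17).

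Among negative regulators, Nfkbia, the NF-kappaB inhibitor, was higher in PSNL than in sham (1.75 ± 0.42, adjusted p = 0.0339), 1 of 9 tested (5.22% of all genes called), and with the kinase-dead Irak3 (1.24 ± 0.23) higher than in crush (1.77 ± 0.42). With time in PSNL Nfkbia (-3.32 ± 0.34), Tnfaip3 (-2.50 ± 0.40) and Socs1 (-2.53 ± 0.50) fell, among 5 lower and 1 higher of 9. Of all genes 56.3% were called in that comparison, 3104 lower and 3363 higher. In crush Irak3 rose (1.24 ± 0.21) and Sigirr (-2.40 ± 0.61) and Socs1 (-1.81 ± 0.56) fell. The contrast of differences called 3 of 9 against 7.81% of all genes, Nfkbia (-2.17 ± 0.52), Irak3 (-1.18 ± 0.28) and Tnfaip3 (-2.37 ± 0.61).

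Of 17 adaptors and kinases tested, only Traf6, the ubiquitin ligase downstream of MYD88, was higher in PSNL than in sham (2.05 ± 0.43, adjusted p = 0.0178). This is near the 5.22% of all genes called in either direction. Irak2 (1.10 ± 0.22) and Ikbke (2.20 ± 0.48) were higher than in crush, near the 12.4% of all genes called in either direction. With time 5 rose and 5 fell in PSNL, near the 56.3% of all genes called, and 6 rose and 6 fell in crush, against 42.5%. Pik3ap1 rose in PSNL (3.67 ± 0.47), Irak2 rose in both (1.38 ± 0.18 and 2.42 ± 0.21), Traf3 rose in crush (1.70 ± 0.17), and Ikbkb fell in both (-0.97 ± 0.13 and -1.16 ± 0.14). The PSNL minus crush difference changed with time for Irak2 (-1.05 ± 0.26) and Ikbke (-2.41 ± 0.61), against 7.81% of all genes. Of 9 transcription factor genes none was called against sham (edgeR). Jun was higher in PSNL than in crush (0.80 ± 0.24), near the 12.4% of all genes called in either direction. Later, 5 of 9 were lower in PSNL and none higher, where 56.3% of all genes were called, 3104 lower and 3363 higher. Among these 5 were Jun (-1.39 ± 0.20), Nfkb2 (-1.29 ± 0.19) and Irf7 (-4.02 ± 0.88). In crush 3 were lower, Irf7 (-5.19 ± 1.04), Irf3 (-0.73 ± 0.16) and Nfkb2 (-0.88 ± 0.21), where 42.5% of all genes were called, 2127 lower and 2756 higher. Of 4 other Toll-like receptor genes tested, Tlr3 was lower in PSNL than in crush (-1.92 ± 0.54), where 12.4% of all genes were called. Tlr3 was also lower at 15 weeks in crush (-1.76 ± 0.45) and Tlr6 lower at 15 weeks in PSNL (-0.94 ± 0.27), against 42.5 and 56.3% of all genes. At 15 weeks no gene of these lists differed between the injuries, and in crush against sham none was called. Tlr11, Lbp, Sarm1, Il12b, Ifnb1 and Nos2 had too few counts to be tested.

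In the annotation of GENCODE M21 (GRCm38) all 10 members are protein-coding genes. Tlr7 (X:167304929-167330558) and Tlr8 (X:167242696-167264329) are neighbours on the minus strand, and Tlr13 lies at X:106143204-106160493. Tlr9 (9:106222598-106226883) and Myd88 (9:119335934-119341411) share chromosome 9. Tlr1 lies at 5:64924679-64933563, Tlr2 at 3:83836272-83841767, Tlr4 at 4:66827584-66930284, Cd14 at 18:36725067-36726798 and Ly86 at 13:37345208-37419036. The counts are those of whole genes, so exons and introns were not told apart.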

How the data were processed

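The files deposited by the authors are raw counts, of UMIs for genes and of hashtags, in every barcode. Tools listed in the submitters' processing notes are Cell Ranger 6.0.0 and Seurat 5.1.0, with the build GRCm38. The 15 week headers give another Cell Ranger version than the 1 week headers, and whether intron reads were counted is not stated. The 1 week matrices list 31053 genes and the 15 week matrices 32285. No column of per-sample values was left unused (0).

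Barcodes above exactly 1 hashtag threshold, set at the valley of the log10 counts, were assigned, which also removes most doublets between samples. Barcodes above several thresholds made up 26.7% (crush) and 28.9% (PSNL) of the 1 week libraries and 1.83% (crush) and 5.18% (PSNL) of the 15 week libraries. Doublets within a sample were not called, and their part in the time comparisons was not tested. Cells needed 500 or more genes and less than 10% mitochondrial UMIs. Sums per hashtag sample entered edgeR 4.0.16 (R 4.3.3), whose quasi-likelihood test was used (TMM, filterByExpr, 11484 genes, 13 samples in 1 fit, 8 residual degrees of freedom), adjusted by Benjamini and Hochberg. SE is the standard error of a log2 difference. The scripts were tested on simulated data. Alternatives were DESeq2 1.42.0, HTODemux (Seurat 5.3.0), a hashtag ratio of 3, no filter on low counts, at least 1000 genes per cell, no neutrophil-gated cells, sex or library as a term, and each sample left out.

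Members and lists were chosen with earlier results of these data known, and the gate rule, the tests against the Spp1 Lgals3 gate and the fits within gates with a sample left out were set after seeing the data. Of the other pathway genes, up to 3 per list and comparison with the smallest adjusted p, and a few more called ones chosen after their values were seen (Ptgs2 against sham, Cd180 against crush, Cd36 in crush), were named. For each member, the 2 genes most correlated with it are named as well.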

Additional observations from a re-analysis of the deposited data

Results flagged for a closer look

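The difference between PSNL and crush nerves changed from 1 week to 15 weeks, by a test of that change itself, for Cd14 (log2 -3.40), Tlr2 (-1.35), Tlr4 (-1.34) and Ly86 (1.67). The same test called Cd14 (-3.19) and Ly86 (2.29) within the Spp1 Lgals3 gate, and Cd14 (-2.16) and Ly86 (1.34) among cells of no gate. Time coincides with batch, and the injuries were in separate libraries, so these cannot be told apart from the change. In the PSNL group at 15 weeks, the only one with 4 samples, 10 sets of values, 1 per member, were tested for a sample far from the others, and none passed Dixon's 95% critical value.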

How the results depend on the processing

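Of 24 calls, 11 were kept in every alternative run and 0 changed sign. Of the 42 differences called in no setting, 25 had the other sign in at least 1 alternative (52 of 576 values). In PSNL against sham the 4 called members became 0 with HTODemux, where Cd14 had a log2 value of 1.51 (adjusted p = 0.125) and the sham female held 132 cells in place of 64, and 2 without neutrophil-gated cells, 2 at 1000 genes per cell, 2 with library as a term, and 2 to 3 with each sample left out. In PSNL against crush at 1 week 4 became 2 with library as a term. For the change of that difference with time, leaving out each sample gave 2 to 5. At 50 cells per sample and gate, microglia-like against resident macrophages gave 3 in place of 2, and neutrophils 4 higher and 0 lower in place of 4 and 2. Monocytes then rested on 1 sample, so their calls are not counted. With no filter, neutrophils gave 4 higher and 1 lower, and the Retnla Ear2 gate 7 lower in place of 6. Within the Spp1 Lgals3 gate at 1 week, 3 became 1 to 3 with each sample left out, and among cells of no gate 2 became 1 to 2. In crush with time, Tlr9 ranged from -2.20 (without the crush female at 1 week) to 1.05 (without the crush male), and Tlr13 (0.65) was called without crush F1 at 15 weeks. Tlr4 in PSNL with time was called without neutrophil-gated cells (0.53) and at 1000 genes per cell (0.39).

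Called genes over the whole table were 599 in PSNL against sham, 101 with HTODemux, 261 with library as a term and 150 to 294 with a sample left out. In crush against sham 7 became 152 with no filter, 144 with DESeq2, 50 with HTODemux, 15 with the hashtag ratio, 12 without neutrophil-gated cells, 31 at 1000 genes per cell, 50 with sex as a term, 4 with library as a term and 0 to 110 with a sample left out. In PSNL against crush at 1 week 1424 became 68 with library as a term and 359 to 823 with a sample left out. At 15 weeks 0 became 8 with no filter, 8 with DESeq2, 2 with sex as a term and 0 to 2 with a sample left out. The causes were not tested. For crush with time, a sample left out gave 3011 to 4718 in place of 4883, and for the contrast of differences 197 to 1159 in place of 897. The replicate numbers at 15 weeks share only a number (correlations of deviations 0.082, 0.162 and 0.113 for F1, F2 and M1). None was the highest for its crush sample, and that of M1 alone was the highest for its PSNL sample. A fit with this replicate block called 0 members and 0 of 10917 genes, as did the same 6 samples without it.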

Other observations

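Over the 13 samples, which share group and batch differences, the genes most like Cd14 in log2 CPM were Rap1b (Pearson 0.97) and Csta2 (0.96), those most like Tlr2 were Smox (0.97) and Rab7 (0.96), and those most like Myd88 were Sf3b1 and Cdkn2d (both 0.99). Tlr4 was nearest to Lamc1 and Slc7a8 (both 0.96), Tlr7 to Rabgap1 and Akap8l (both 0.97), Tlr8 to Fmnl2 (0.94) and Vps54 (0.93), Tlr13 to Kcnj2 (0.95) and Klhl25 (0.93), and Ly86 to Hltf and Ctc1 (both 0.93). For Tlr9 (Phf11c 0.86, Asb13 0.83) and Tlr1 (Scfd1 0.80, Snhg9 0.79) the values were lower. They are descriptions over samples that fall into 5 groups.

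Among thinned cells, Tlr7 and Tlr8 were found together in 19 of the 1630 PSNL cells at 15 weeks, and 8.05% of cells with Tlr7 also had Tlr8 against 5.88% of those without. In crush at 15 weeks the shares were 7.01 and 5.53%. In PSNL at 1 week Tlr2 was found in 17.1% of the 41 cells with Tlr1 and 21.4% of those without.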
